A study of Mus musculus with 18 samples.

Results

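Wild type mesangial cells were set against wild type glomerular endothelial cells. The comparison used 6 of the 18 arrays of the series, 3 per cell type, chosen by their deposited labels: the control columns of the Meis1-GFP line for mesangial cells and the wild type columns of the Tie2-GFP line for endothelial cells. Glomeruli of mice 5 weeks of age were dissociated and GFP positive cells were collected by FACS. Mesangial cells carried the Meis1-EGFP transgene, in which a genomic clone around Meis1 drives GFP, and endothelial cells carried GFP under the Tie2 (Tek) promoter. The 2 transgenic lines differ with the cell type, so line and cell type cannot be told apart here. In the table's headers, the 3 mesangial controls are marked +:- and the 3 endothelial controls +|+, while the genotype label of all 6 samples is wild type and the titles of the mesangial ones say control. Whether the mesangial controls carried a single functional Cd2ap allele is not known. Cd2ap, the gene mutated in the rest of the study, had signals of 922, 1037 and 1123 in mesangial and 840, 859 and 757 in endothelial arrays, a log2 difference of 0.32 ± 0.11 (SE, n = 3 and 3, limma adjusted p = 0.057). The labels describe the replicates as biological triplicates and do not say how many animals each held.

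Mesangial cells are the contractile pericytes of the glomerular tuft, which hold the capillary loops together and lay down the mesangial matrix. The glomerular endothelium lines the same loops as a fenestrated sheet and, through PDGF-B and its receptor PDGFRB, recruits the mesangium during development. Signals between these neighbours, among them angiopoietins, VEGFs, endothelin and nitric oxide, are known to govern capillary shape and filtration, and the comparison asks which side of each exchange a cell type carries.

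Each transcript cluster, the array's unit for a gene, has 1 linear signal per array. Of 28856 clusters, 11936 reached a signal of 100 in at least 1 of the 6 arrays and were tested, and array medians ran from 63.8 to 66.96, so signals under 100 are near the background of these arrays. All differences below are log2 signal in mesangial minus endothelial cells, with the SE of the limma fit. A cluster was called when its Benjamini-Hochberg adjusted p was under 0.05 and its fold difference over 1.5. The arrays are named A, B and C within a cell type in column order. Levels are compared between arrays and never between genes, because clusters differ in their probes. Where all arrays of a cell type are under 100 a fitted difference rests on background there, so its size is not exact and a fold is given only as a lower bound, against a signal of 100. A difference in signal per cell cannot be told apart from a difference in the share of sorted cells that carry a transcript.

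The sorted populations carried the markers of their labels, with 1 exception that touches many results. Pdgfrb, the PDGF-B receptor that mesangial cells need to populate the tuft, had signals of 1481, 1706 and 1599 in mesangial arrays and 65.0, 53.2 and 58.7 in endothelial arrays, a difference of 4.76 ± 0.11. Gata3, a transcription factor of the mesangial lineage, had 1276, 1579 and 1419 against 55.7, 64.9 and 66.4. Both mesangial markers were thus near background in the 3 endothelial arrays. Kdr, the main VEGF receptor of endothelium, had 2308, 2432 and 2301 in endothelial arrays and 77.6, 81.1 and 935 in mesangial arrays A, B and C. Pecam1, the endothelial adhesion molecule CD31, had 2409, 2320 and 1634 against 82.3, 107 and 807. Mesangial array C thus stood apart from A and B and carried endothelial markers well above 100.

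Array C also carried markers of other glomerular and renal cells. All 12 genes of a podocyte list reached 100 in it, against 2 in array A, 3 in array B and 3 in each endothelial array. Their summed signal was 4402 against 950 and 1033. In the endothelial arrays the sum was 1724 to 2007, of which the list gene Clic5 alone had a mean of 1029. Nphs1, nephrin of the slit diaphragm, had 58.2, 55.6 and 168. Of 12 tubule genes, 6 reached 100 in array C and none in A or B (summed signal 2231 against 641 and 626), with Umod, uromodulin of the thick ascending limb, at 335 and Kap, the kidney androgen-regulated protein of the proximal tubule, at 841. Of 14 leukocyte genes, 3 reached 100 in array C, with the pan-leukocyte phosphatase Ptprc at 82.5, 64.5 and 283, while the macrophage genes Csf1r and Cd68 stayed below 100 in all 6 arrays. The summed signal of an erythroid and platelet list was higher in the endothelial arrays than in mesangial arrays A and B, and highest in array C, with 893, 605 and 7576 in mesangial and 4272, 1703 and 2804 in endothelial arrays, and in the arrays labelled mutant 496 to 724 against 1554 to 2142. The haemoglobin cluster of Hba-a1 had 107, 60.2 and 2168 in mesangial and 1232, 348 and 695 in endothelial arrays. It was not called with array C (-1.47) and was called endothelial without it (-3.06 ± 0.50), as was the cluster shared by Hbb-b1 and Hbb-b2 (-2.71 ± 0.51). The platelet genes Pf4, Ppbp, Itga2b and Gp9 stayed below 100 in all 6 arrays. The part of these cells in any single result was not tested. Values without array C are given for some of the results it moved, not for all.

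**Figure D1:**
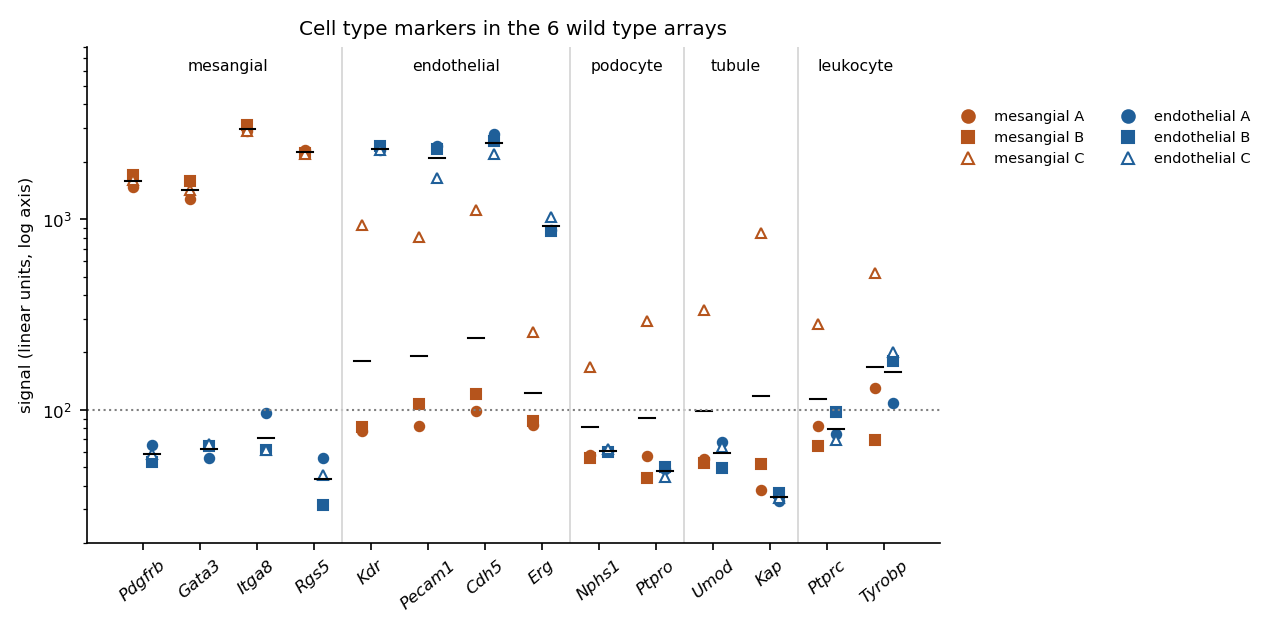
Linear signal (log axis) of 14 marker genes in the 3 mesangial (brown) and 3 endothelial (blue) wild type arrays, with arrays C as open triangles, the geometric mean of each group as a bar and the signal minimum of 100 as a dotted line. Mesangial markers separate the cell types in all arrays, while mesangial array C lies between the groups for Kdr (935), Pecam1 (807) and Cdh5 (1111) and above all other arrays for Ptpro, Umod, Kap and Ptprc.

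The genes whose regulatory regions drove the sort are no finding. Tek, whose promoter drives GFP in the endothelial line, had 1994, 2033 and 1871 in endothelial and 575, 783 and 1090 in mesangial arrays. Meis1, whose locus drives GFP in the mesangial line, had 210, 224 and 189 in mesangial and 144, 176 and 177 in endothelial arrays, a difference of 0.33 ± 0.12 with an adjusted p of 0.0762. The 95% interval of the Meis1 difference was 0.05 to 0.61, under 1 on the log2 scale. Endogenous Meis1 was thus not called, and any difference in its signal was small.

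Across the genome 1175 clusters (9.84% of those tested) were called higher in mesangial cells and 960 (8.04%) higher in endothelial cells. The median difference over all tested clusters was -0.01. In 5755 clusters (48.2%) all 3 arrays of one cell type lay above all 3 of the other. Without mesangial array C, 1237 of 11727 clusters (10.5%) were higher in mesangial and 1062 (9.06%) higher in endothelial cells. Of the 1175 and 960 clusters called with array C, 1101 and 931 were also called without it. The median absolute difference of called clusters was 1.06 with and 1.08 without array C on the mesangial side, and 1.02 and 1.08 on the endothelial side. Among the 1062 endothelial clusters called without array C, array C lay above both A and B in 854 (80.4%). Among the 1237 mesangial clusters it lay below both in 752 (60.8%). These clusters were chosen on arrays A and B, which by itself favours such a position of array C. For the endothelial clusters the median difference from the endothelial mean was -1.09 for array A, -1.08 for array B and -0.77 for array C. With array C, 32 clusters were higher in endothelium by more than 3 on the log2 scale, and without it 72 were. The corresponding numbers for mesangial cells were 104 and 113.

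The same cell types were compared in the 6 arrays labelled Cd2ap mutant, which share no array with the wild type comparison. There 973 of 11810 clusters (8.24%) were higher in mesangial and 1432 (12.1%) higher in endothelial cells. Of the clusters higher in wild type mesangial cells, 1096 were tested there, 1064 (97.1%) had the same sign and 743 (67.8%) were called the same way. Of those higher in wild type endothelium, 931 were tested, 923 (99.1%) had the same sign and 779 (83.7%) were called. In these arrays, the podocyte list summed to 888 to 956 in mesangial cells and the tubule list to 649 to 658. The leukocyte list summed to 883, 2330 and 826 in mesangial and 1459, 1070 and 825 in endothelial arrays labelled mutant, so mesangial array B stood apart there, with Tyrobp, a signalling adaptor of myeloid cells, at 1261.

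**Figure D2:**
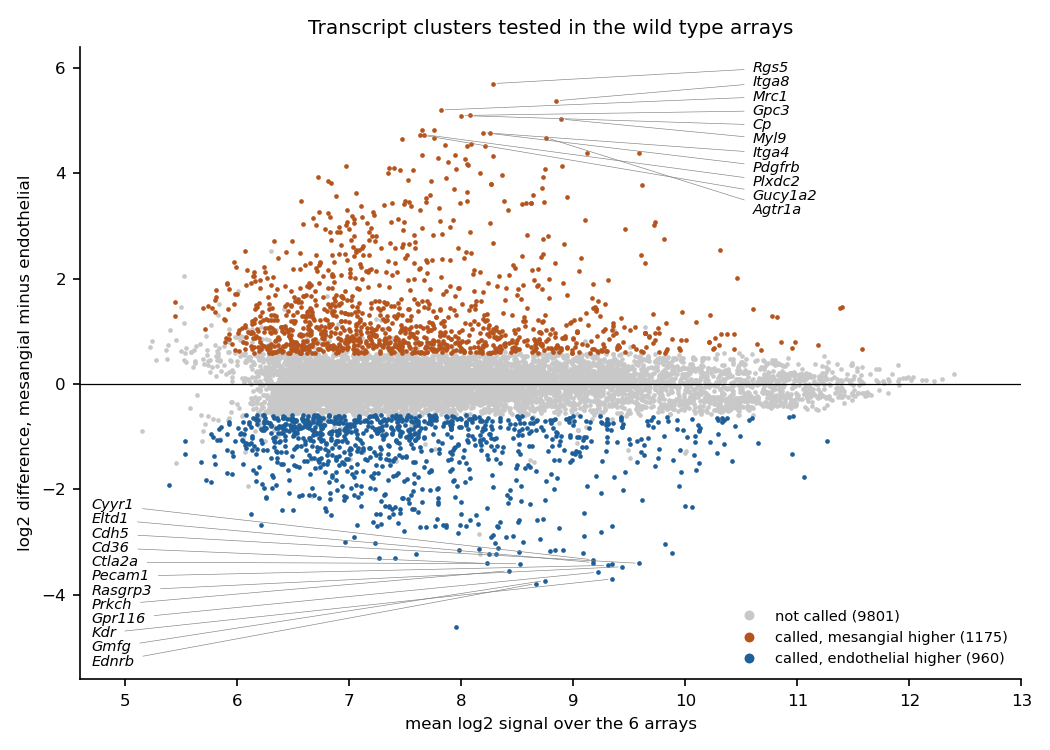
Log2 difference, mesangial minus endothelial, against the mean log2 signal of the 6 wild type arrays for the 11936 tested transcript clusters. Brown points (1175) were called higher in mesangial and blue points (960) higher in endothelial cells; names mark genes among the 12 largest called differences in each direction with a single gene symbol and no overlap between the groups, from Rgs5 at 5.71 to Ednrb at -3.79.

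The largest mesangial differences among clusters with a single symbol included genes of contractile pericytes and matrix contact, beside genes of other kinds. Rgs5, a regulator of G protein signalling and classical pericyte marker, had 2319, 2229 and 2199 in mesangial and 55.8, 31.5 and 45.6 in endothelial arrays, a difference of 5.71 ± 0.20 (at least 22.5-fold higher, adjusted p = 3.03e-06). Itga8, the integrin subunit that glomerular mesangium is known for, had 2892, 3126 and 2904 against 96.4, 61.3 and 61.6 (5.38 ± 0.18, at least 29.7-fold higher). The endothelial signals of Rgs5 and Itga8 were under 100, so the order of their differences is not exact. For both genes the groups were far apart and array C lay with A and B. Gpc3, a glypican, had 1396, 2113 and 1345 against 49.0, 43.9 and 45.5, and Myl9, the regulatory light chain of smooth muscle myosin, had 2773, 2978 and 2433 against 104, 63.9 and 86.1. Agtr1a, the angiotensin II receptor, had 2231, 2241 and 2093 against 82.2, 97.0 and 77.9 (4.68 ± 0.11). Gucy1a2, a subunit of the nitric oxide receptor guanylate cyclase, Cp, the copper oxidase ceruloplasmin, and Plxdc2, a plexin domain protein, differed by 4.74, 5.10 and 4.74.

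Mrc1, the mannose receptor best known from macrophages, was also among the largest mesangial differences, with 1273, 1519 and 1335 in mesangial and 37.7, 35.5 and 38.5 in endothelial arrays (5.20 ± 0.10). Csf1r, the macrophage growth factor receptor, lay below 100 in the same mesangial arrays, and of the 14 leukocyte genes Tyrobp alone reached 100 in array A (130), none did in array B and 3 did in array C. Their part in the Mrc1 signal was not tested. The arrays labelled mutant gave a difference of 3.44 for Mrc1.

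The 12 largest endothelial differences ran from -3.79 to -3.34, and array C was the highest mesangial array for each. Ednrb, the endothelin B receptor, had 1451, 1832 and 1296 in endothelial and 69.7, 83.0 and 227 in mesangial arrays, a difference of -3.79 ± 0.42, and of -4.31 ± 0.17 without array C. Kdr differed by -3.70 ± 0.89 (adjusted p = 0.0196), and by -4.89 ± 0.10 (at least 23.5-fold higher in endothelium, adjusted p = 1.59e-06) without array C. Its call was lost when any 1 of the other 5 arrays was left out while array C stayed, with adjusted p between 0.0547 and 0.0646. The calls of Gpr116, Rasgrp3, Cdh5 and Eltd1 were lost in the same 5 fits, those of Ctla2a and Pecam1 in 4 and 3 of them, and that of Cd36 without endothelial array C. With all arrays kept, the calls of Kdr, Gpr116, Rasgrp3, Cdh5 and Eltd1 were also lost with no minimum signal and with an intensity trend and robust eBayes, and those of Ctla2a and Pecam1 with the latter. Without array C all 12 genes were called. Sizes rose likewise for Gpr116 and Eltd1, adhesion receptors of endothelium, with -3.57 and -3.39 against -4.70 and -4.47 without array C. Pecam1 and Cdh5, VE-cadherin of the endothelial junction, differed by -3.44 and -3.40 with and -4.47 and -4.52 without array C. Cd36, a fatty acid receptor, went from -3.41 to -4.38, Rasgrp3, an activator of Ras and Rap, from -3.47 to -4.61, and Prkch, a protein kinase C, from -3.54 to -4.38. Gmfg, Ctla2a and Cyyr1 completed the set with -3.73, -3.41 and -3.34. A cluster without a gene symbol had a larger difference than these, -4.61, with 28.7, 29.2 and 151 in mesangial and 948, 1575 and 1226 in endothelial arrays.

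Gene lists for cell identity, matrix and signalling, chosen with earlier results of these data known, were read in the same fit, and their counts stand beside shares of 9.84% called mesangial and 8.04% called endothelial over all tested clusters. In the mesangial and pericyte list, 14 of 14 tested genes were higher in mesangial cells, with a median difference of 4.07 against -0.01 over all tested clusters; the other 2 genes, Thy1 and Anpep, stayed below 100. Pdgfra, the second PDGF receptor, had 1081, 1248 and 1138 against 58.9, 59.9 and 60.4 (4.27 ± 0.09). Nt5e, the ecto-nucleotidase CD73 that makes adenosine, differed by 4.01 ± 0.13 and Serpine2, a protease inhibitor, by 4.13 ± 0.13. The intermediate filament Des differed by 3.07 ± 0.18. Cspg4, the NG2 proteoglycan used to mark pericytes, had signals of 197, 169 and 133 against 80.6, 76.2 and 96.9 (0.96 ± 0.17). Mcam, CD146, was present in both cell types, with 907, 995 and 894 against 537, 378 and 532 (0.97 ± 0.15).

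Of 23 tested transcription factors of the stromal list, 14 were higher in mesangial cells, 2 higher in endothelium and 7 not called (median 1.11). Foxc1, Nr2f1, Nr2f2 and Hoxc10, developmental regulators of mesenchyme and position, differed by 2.88, 2.43, 2.51 and 2.72, with endothelial signals between 32.8 and 128. Wt1, the regulator of podocyte and renal stromal development, had 363, 506 and 419 in mesangial and 79.2, 97.4 and 101 in endothelial arrays (2.21 ± 0.15), and array C was not the highest. Twist1, Zeb2 and Ebf1, mesenchymal regulators, differed by 1.45, 1.34 and 1.12. Meis2, a homeodomain factor related to Meis1, ran the other way and had 1757, 1989 and 1875 in endothelial and 558, 610 and 852 in mesangial arrays (-1.50 ± 0.16). The stromal factors Foxd1 and Tcf21, which the wild type podocyte arrays carried at mean signals of 1037 and 1363, reached 155 and 209 in array C and stayed below 100 in the other 5 arrays.

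Contractile genes were higher in mesangial cells in 14 of 17 tested members and higher in endothelium in none, with a median difference of 1.30. The call of 1 of the 14, Tagln, an actin-binding protein of smooth muscle, was lost with all 18 arrays in 1 fit (1.11, adjusted p = 0.144). Acta2, smooth muscle actin, had 627, 680 and 539 in mesangial and 186, 70.9 and 82.3 in endothelial arrays (2.57 ± 0.34). Myh11, smooth muscle myosin heavy chain, had 293, 315 and 288 against 63.9, 74.2 and 65.3 (2.14 ± 0.10). Tpm2, Mrvi1 and Flna, a tropomyosin, a substrate of cGMP-dependent kinase and the actin crosslinker filamin A, differed by 2.59, 2.23 and 1.80. Cald1 and Tpm1, actin-binding proteins of contractile cells, were well above 100 in both cell types and differed by 1.30 and 1.29. Cnn1, calponin, rose to 106 in array C alone and had 78.6 and 93.8 in A and B, so it was tested only with array C. The smooth muscle coactivator Myocd, with signals of 33 to 46, and Actg2 and Lmod1 stayed below 100 in all 6 arrays.

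Serum response factor binds the CArG box, a 10-base element found upstream of many smooth muscle genes. It was searched on both strands in the 250 bases before the start of the list's genes in RefSeq's GRCm38.p6 promoter windows. For 18 of the 23 contractile genes there were 22 windows, and 1 of them (4.55%) held a CArG box, against 1.47% of all 32851 windows. The share was 1.93% for genes called higher in mesangial cells, 0.99% for those called higher in endothelium and 1.04% for genes tested but not called. A single window says little about the list, the difference was not tested, and a match is not a bound site. The window with the box belongs to Myl9, the contractile gene with the largest difference, and is shown with the box in capitals. It lies on the plus strand at chr2:156775214-156775463, and the box ends 151 bases before the start.
Myl9: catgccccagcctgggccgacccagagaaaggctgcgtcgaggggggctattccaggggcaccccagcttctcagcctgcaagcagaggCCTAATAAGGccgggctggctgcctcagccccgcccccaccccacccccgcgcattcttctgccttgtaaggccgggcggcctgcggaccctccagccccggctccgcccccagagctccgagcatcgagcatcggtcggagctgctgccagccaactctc

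Of 34 tested endothelial receptor and surface genes, 27 were higher in endothelium, 2 higher in mesangial cells and 5 not called, with a median difference of -1.43, and of -1.61 without array C. Tek, whose promoter drove the endothelial sort, is among the 27 and in these medians. Flt1, the decoy VEGF receptor, had 1621, 1814 and 1535 in endothelial and 125, 86.6 and 539 in mesangial arrays (-3.20 ± 0.61, and -3.99 ± 0.17 without array C). Aplnr, the apelin receptor, had 866, 897 and 774 against 77.5, 77.1 and 149 (-3.13 ± 0.25, and -3.45 without array C). Egfl7, a secreted endothelial matrix factor, had 852, 968 and 884 against 118, 109 and 249 (-2.61 ± 0.30). Mmrn2, an endothelial matrix protein, Ramp2, the adrenomedullin coreceptor, and Cd93, a C-type lectin, differed by -3.11, -2.69 and -2.24, and by -3.86, -3.30 and -2.61 without array C. Vwf, von Willebrand factor, stayed below 100 in all 6 arrays.

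Several genes of the endothelial list had signals far above 100 in mesangial arrays A and B, which had Kdr and Pecam1 near background. Emcn, the sialomucin endomucin, had 667, 943 and 2464 in mesangial and 3762, 4201 and 3900 in endothelial arrays, and it differed by -1.77 with and -2.32 ± 0.16 without array C. Its call was lost without any 1 endothelial array or without mesangial array B, with no minimum signal, and with an intensity trend and robust eBayes. Calcrl, the adrenomedullin and CGRP receptor, had 908, 857 and 1366 against 2046, 2086 and 1955 (-0.99 ± 0.18), a call lost when all 18 arrays were fitted together (adjusted p = 0.0822). Ehd3, an endocytic protein of glomerular endothelium, had 618, 517 and 581 against 1557, 1121 and 1360 (-1.23 ± 0.14). These genes were called, but their signals in the mesangial arrays were not near background. Cd34, a sialomucin of vascular and stromal cells, had 1570, 1495 and 1632 in mesangial and 1559, 1326 and 1117 in endothelial arrays (0.24, 95% interval -0.07 to 0.55, adjusted p = 0.205). Eng, the TGF-beta coreceptor endoglin, had 723, 719 and 701 against 802, 740 and 1049 (-0.26, interval -0.58 to 0.07). Tm4sf1, a tetraspanin-like protein of endothelium, differed by 0.03 with an interval of -0.22 to 0.28. Plxnd1, the semaphorin 3E receptor, differed by -0.26.

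The 2 listed genes that ran against the list were Clec14a and Plvap. Clec14a, a C-type lectin described in endothelium, had 426, 445 and 496 in mesangial and 123, 122 and 129 in endothelial arrays (1.87 ± 0.09, adjusted p = 1.44e-05). Plvap, the protein of fenestral diaphragms, which mature glomerular endothelium is known to lack, had 278, 300 and 208 against 82.0, 104 and 103 (1.44 ± 0.16). In the arrays labelled mutant these differences were 0.71 and 0.17.

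Endothelial transcription factors were higher in endothelium in 17 of 24 tested genes and higher in mesangial cells in 2 (median -1.21, and -1.35 without array C). Erg, the ETS factor that maintains endothelial identity, had 876, 870 and 1022 against 83.1, 87.3 and 257 (-2.90 ± 0.41, and -3.43 ± 0.12 without array C). The SOXF factors Sox7, Sox17 and Sox18 differed by -1.19, -1.84 and -2.35. Lmo2, Gata5 and Hhex, a bridging factor, a GATA factor and a homeodomain factor of endothelium, differed by -2.28, -1.98 and -1.49. The Notch target Hey2 had 160, 157 and 146 against 50.2, 54.3 and 44.7, with array C the lowest. The ETS family was split. Ets2 had 887, 899 and 647 in endothelial and 102, 143 and 346 in mesangial arrays (-2.23 ± 0.42), and Fli1 had 1153, 1206 and 1129 against 484, 607 and 625 (-1.03 ± 0.12). Ets1 ran the other way, with 977, 984 and 810 in mesangial and 546, 569 and 477 in endothelial arrays (0.80 ± 0.12). Epas1, the hypoxia-inducible factor HIF-2 alpha, was also higher in mesangial cells (0.69 ± 0.10).

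ETS factors bind a core that the letters AGGAAG contain. In the 250 bases upstream of the start, AGGAAG on either strand occurred in 16 of 25 windows (64.0%) of the 22 endothelial receptor and surface genes found in the RefSeq table, against 29.5% of all 32851 windows. The share was 4 of 21 windows for the endothelial transcription factors, 3 of 22 for the contractile genes and 2 of 8 for the junction genes. Over all genes called higher in endothelium it was 33.5% of 810 windows, over those called higher in mesangial cells 28.1% of 1037, and over genes tested but not called 27.5% of 6835. These shares are descriptions of few windows from lists chosen by hand, their difference was not tested, and a match is not a bound site. The 4 windows with the motif and the largest differences in the surface list, and that of Erg, are shown in GRCm38.p6 with AGGAAG or its complement CTTCCT in capitals. They lie at chr17:43360181-43360430 (plus strand, Gpr116), chr3:151437632-151437881 (plus, Eltd1), chr5:147726012-147726261 (minus, Flt1), chr2:26580833-26581082 (plus, Egfl7) and chr16:95459349-95459598 (minus, Erg). Gpr116 has 2 windows in the table and Egfl7 and Erg have 3 each, and the first one with the motif is given.
Gpr116: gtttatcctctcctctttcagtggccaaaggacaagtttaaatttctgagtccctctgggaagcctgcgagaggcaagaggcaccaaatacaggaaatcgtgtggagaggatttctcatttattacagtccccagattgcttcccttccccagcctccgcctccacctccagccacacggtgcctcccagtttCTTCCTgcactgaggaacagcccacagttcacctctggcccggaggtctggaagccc
Eltd1: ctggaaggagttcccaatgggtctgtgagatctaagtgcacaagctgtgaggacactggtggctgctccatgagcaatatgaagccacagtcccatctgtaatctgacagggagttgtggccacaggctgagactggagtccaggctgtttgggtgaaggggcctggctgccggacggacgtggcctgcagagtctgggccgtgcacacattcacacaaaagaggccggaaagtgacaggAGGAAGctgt
Flt1: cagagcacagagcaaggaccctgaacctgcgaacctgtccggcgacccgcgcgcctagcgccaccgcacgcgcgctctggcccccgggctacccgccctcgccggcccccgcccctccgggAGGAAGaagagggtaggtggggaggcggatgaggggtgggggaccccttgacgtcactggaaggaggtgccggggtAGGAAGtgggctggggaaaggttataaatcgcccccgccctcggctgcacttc
Egfl7: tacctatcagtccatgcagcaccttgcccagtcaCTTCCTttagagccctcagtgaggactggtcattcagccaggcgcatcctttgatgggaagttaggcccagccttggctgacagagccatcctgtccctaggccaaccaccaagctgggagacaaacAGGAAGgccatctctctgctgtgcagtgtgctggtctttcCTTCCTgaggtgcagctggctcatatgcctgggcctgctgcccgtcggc
Erg: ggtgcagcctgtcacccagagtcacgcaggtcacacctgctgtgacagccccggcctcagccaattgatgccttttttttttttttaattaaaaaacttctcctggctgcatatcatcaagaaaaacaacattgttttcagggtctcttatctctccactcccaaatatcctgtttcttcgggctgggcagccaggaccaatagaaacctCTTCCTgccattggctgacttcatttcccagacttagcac

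**Figure D3:**
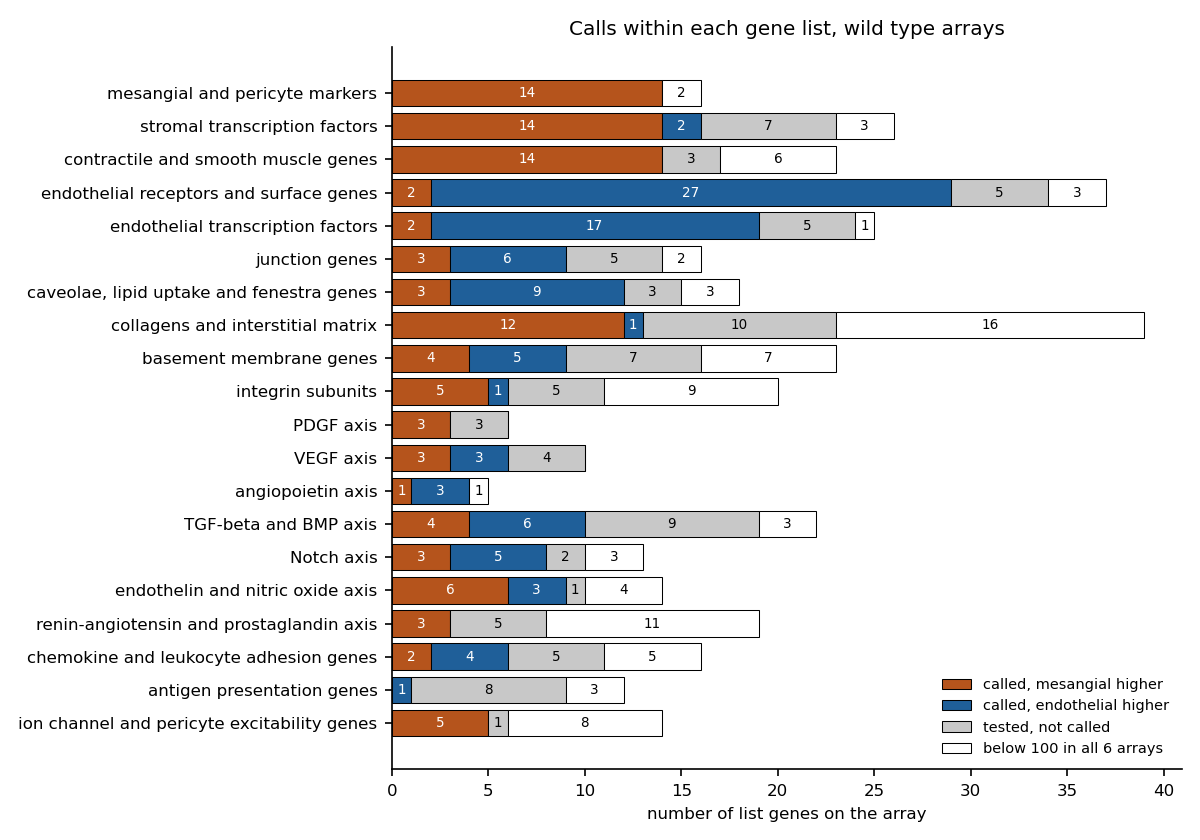
Number of genes per list that were called higher in mesangial cells (brown), called higher in endothelial cells (blue), tested without a call (grey) or below a signal of 100 in all 6 wild type arrays (white). All 14 tested mesangial and pericyte markers and 14 of 17 contractile genes were mesangial, 27 of 34 endothelial surface genes and 17 of 24 endothelial factors endothelial, and most signalling lists held genes of both kinds.

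Junction genes were divided between the cell types, with 6 of 14 tested members higher in endothelium (7 without array C) and 3 higher in mesangial cells. Jam2, an endothelial junctional adhesion molecule, had 653, 627 and 706 against 72.4, 92.4 and 202 (-2.58 ± 0.35). Cldn5, the tight junction claudin of endothelium, had 222, 179 and 141 against 107, 101 and 123 (-0.69 ± 0.17), a call lost without endothelial array A or B or mesangial array A or B. The mesangial calls of the cadherins Cdh2 and Cdh11 (0.80 and 1.09) were lost without endothelial array C. That of Cdh2 was also lost without endothelial array B or with an intensity trend and robust eBayes. The connexins were divided too. Gja5, connexin 40, had 2764, 3222 and 2595 in mesangial and 774, 562 and 792 in endothelial arrays (2.02 ± 0.16), while Gja1 and Gja4, connexins 43 and 37, differed by -1.18 and -0.81, and the call of Gja4 was lost without endothelial array C or mesangial array A or B. Tjp1, the scaffold ZO-1, had 1616, 1691 and 1951 in mesangial and 1997, 1996 and 2037 in endothelial arrays (-0.20, interval -0.43 to 0.03).

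Caveolar and lipid uptake genes were higher in endothelium in 9 of 15 tested members and higher in mesangial cells in 3 (median -1.06, and -1.27 without array C). Gpihbp1, which carries lipoprotein lipase across endothelium, had 932, 727 and 778 against 87.4, 108 and 238 (-2.62 ± 0.35). Fabp4 and Cav1, a fatty acid chaperone and the caveolar coat protein, differed by -2.88 and -1.95, and by -3.76 and -2.31 without array C. The call of Fabp4 was lost without any 1 endothelial array, without mesangial array B, or with an intensity trend and robust eBayes. The lipase itself was measured on the other side. Lpl had 977, 1191 and 889 in mesangial and 141, 532 and 460 in endothelial arrays (1.63 ± 0.47, adjusted p = 0.0373), and this call was lost without endothelial array C or without either of mesangial arrays A and B, and under both of the settings named for Emcn. The arrays labelled mutant gave 0.04 for Lpl.

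Interstitial matrix genes were higher in mesangial cells in 12 of 23 tested members, higher in endothelium in 1 and not called in 10, with a median difference of 1.19. Bgn, the proteoglycan biglycan, had 1817, 1772 and 1705 in mesangial and 101, 135 and 84.3 in endothelial arrays (4.07 ± 0.17). Mgp, matrix Gla protein, had 1431, 1539 and 1014 against 125, 56.3 and 81.2 (3.98 ± 0.30). Col12a1, Col8a1 and Col6a3, non-fibrillar collagens, differed by 3.43, 2.70 and 1.89. The fibrillin Fbn1, whose cluster also carries a predicted gene, and the glycoprotein Tnc, tenascin C, differed by 2.84 and 2.46. Col3a1 and Lum, genes of fibroblast matrix, stayed below 100 in all 6 arrays, and Col1a1 was between 107 and 124 in both cell types. Ltbp1, which stores latent TGF-beta in the matrix, was the endothelial member, with 415, 468 and 317 against 125, 138 and 183 (-1.43 ± 0.19). Sparc, a collagen-binding protein, had signals far above 100 in both cell types, with 4485, 4501 and 5052 against 4652, 4244 and 4433 (0.07, interval -0.14 to 0.29).

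Of 16 tested basement membrane genes, 4 were higher in mesangial cells and 5 higher in endothelium (median 0.05), against 9.84% and 8.04% of all tested clusters. The laminin subunits were split. Lama4, the alpha chain of an endothelial laminin, Lama3, another laminin alpha chain, and Lamc1, the common gamma chain, differed by -1.47, -1.42 and -0.84. Lamb1, a beta chain, was mesangial, with 509, 543 and 500 against 376, 298 and 295 (0.69 ± 0.12). Nid1, the linker nidogen, had 623, 651 and 611 against 287, 259 and 267 (1.22 ± 0.09), and the collagen IV chains Col4a1 and Col4a2 differed by 0.74 and 0.86. Hspg2, perlecan, and Col15a1 were endothelial, with -1.06 and -1.26.

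Of 11 tested integrin subunits, 5 were higher in mesangial cells and 1 higher in endothelium, the latter near the 8.04% of all tested clusters. Besides Itga8, Itga4, a fibronectin and VCAM1 receptor subunit, had 1588, 1622 and 1394 in mesangial and 59.0, 53.2 and 55.6 in endothelial arrays (4.78 ± 0.10), and Itga1, a collagen receptor subunit, had 1060, 983 and 793 against 93.2, 64.6 and 70.9 (3.64 ± 0.17). Itgav and Itga9 differed by 1.92 and 0.68, and the call of Itga9 was lost with all 18 arrays in 1 fit (adjusted p = 0.0761). Itga6, a laminin receptor subunit, was the subunit called endothelial, with 1265, 1103 and 952 against 65.4, 86.2 and 315 (-3.18 ± 0.54, and -3.87 ± 0.17 without array C). Without array C, Itga5, the fibronectin receptor subunit, was called too (-0.61, against -0.54 with array C). Itgb1, the shared beta subunit, had 2994, 2884 and 2833 against 2175, 2072 and 1777, a difference of 0.54 ± 0.10 that passed the adjusted p (0.0077) but not the fold of 1.5.

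The PDGF axis was read first by its receptors, both mesangial as given above. Among the ligands, Pdgfc had 670, 636 and 512 in mesangial and 59.9, 49.1 and 53.4 in endothelial arrays (3.48 ± 0.13). Pdgfb, the endothelial ligand that recruits mesangial cells in development, had 269, 156 and 168 in endothelial and 140, 159 and 133 in mesangial arrays, so the groups overlapped (-0.42, interval -0.91 to 0.07, adjusted p = 0.169). It was called in the arrays labelled mutant (-1.58). Pdgfd had 466, 350 and 451 against 451, 343 and 346 (0.15, interval -0.22 to 0.52). Pdgfa passed the fold only without array C, with 0.66 against 0.52.

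In the VEGF axis the 3 receptor tyrosine kinases were endothelial and 3 of the 5 ligands mesangial. Figf, VEGF-D, had 1058, 1324 and 993 in mesangial and 55.8, 40.1 and 50.3 in endothelial arrays (4.53 ± 0.16). Vegfc and Pgf, ligands of Flt4 and Flt1, differed by 1.25 and 1.09, with mesangial signals between 80.4 and 185. Vegfa, the ligand for which podocytes are the known glomerular source, had 300, 306 and 305 in endothelial and 99.4, 86.6 and 300 in mesangial arrays. Its difference of -1.15 was not called (adjusted p = 0.0866), but -1.71 without array C was (adjusted p = 3.53e-05). Flt4, the receptor of VEGF-C and VEGF-D, had 160, 129 and 141 against 45.6, 44.99 and 61.4 (-1.51 ± 0.15). The coreceptor Nrp1 had 2236, 2336 and 2336 in mesangial and 2179, 2470 and 2238 in endothelial arrays, a difference of 0.01 with an interval of -0.20 to 0.21, and Nrp2 differed by -0.03 (interval -0.27 to 0.22).

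Of 4 tested genes of the angiopoietin axis, 1 was higher in mesangial cells and 3 in endothelium, against 9.84% and 8.04% of all tested clusters. The 3 include Tek, whose promoter drove the sort and whose signals in all mesangial arrays, given above, were far over 100. Angpt2, the context-dependent ligand of TIE2, had 1381, 1257 and 877 in mesangial and 89.5, 80.1 and 78.9 in endothelial arrays (3.80 ± 0.17), and Angpt1, the activating ligand, stayed below 100 in all 6 arrays. Tie1, the orphan coreceptor, had 437, 347 and 355.6 in endothelial and 66.4, 59.9 and 151 in mesangial arrays (-2.16 ± 0.34). Ptprb, the phosphatase that acts on TIE2, had 2153, 2327 and 2396 against 302, 311 and 1030 (-2.32 ± 0.45, and -2.90 ± 0.10 without array C).

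**Figure D4:**
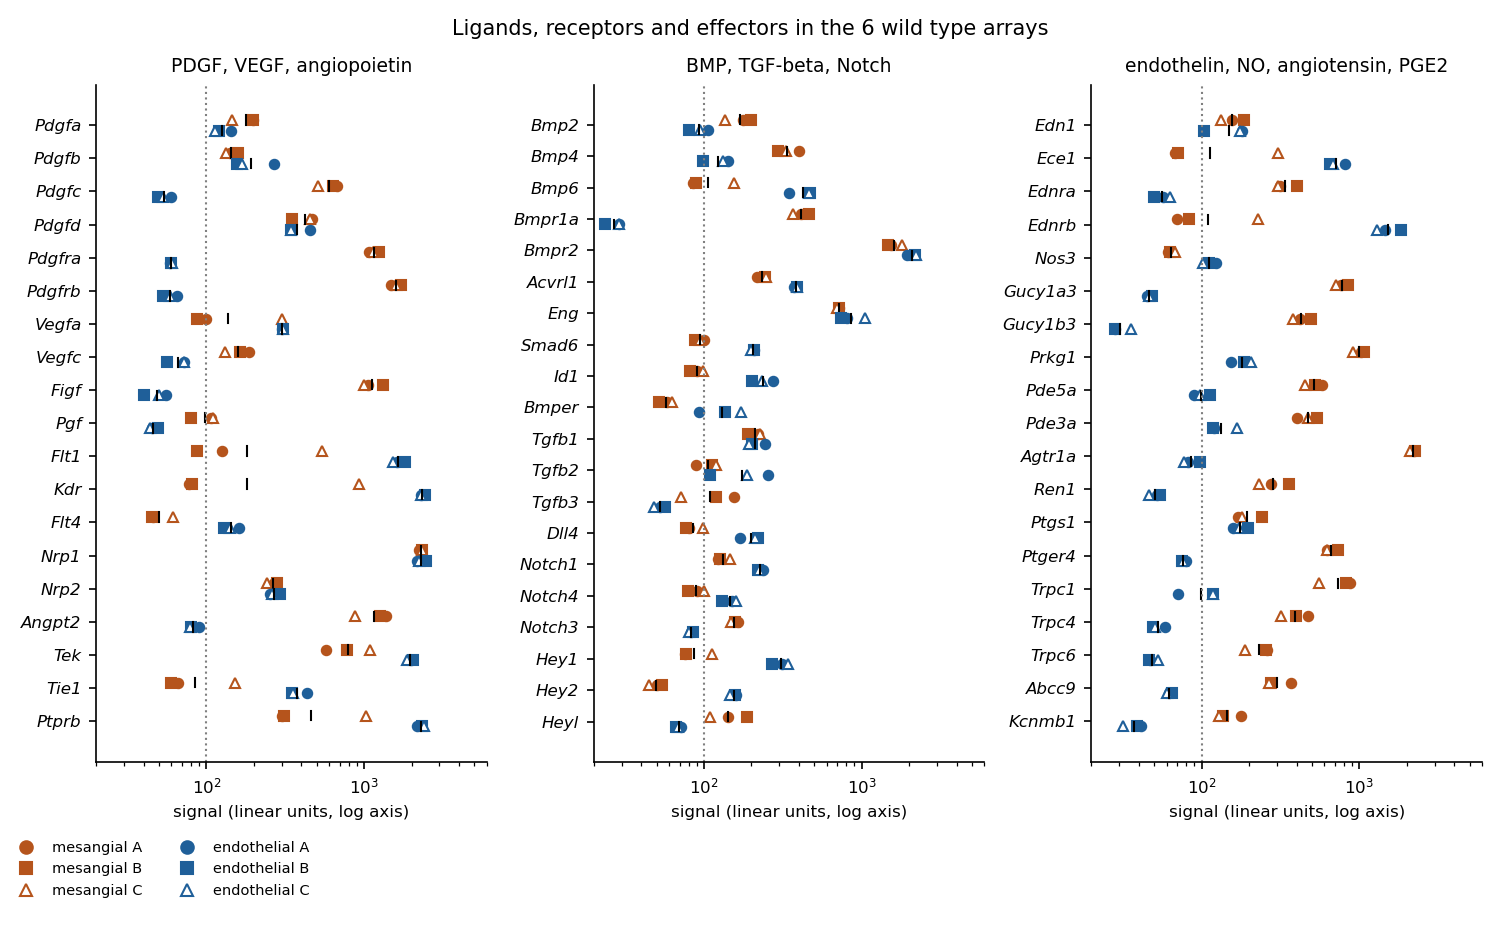
Linear signal (log axis) of ligands, receptors and effectors in the 3 mesangial (brown) and 3 endothelial (blue) wild type arrays, with arrays C as open triangles, geometric means as bars and the signal minimum of 100 as a dotted line. Figf, Angpt2, Pdgfc, Bmpr1a, Gucy1a3 and Agtr1a separate on the mesangial side and Kdr, Flt1, Ptprb, Ednrb and Bmp6 on the endothelial side, while Nrp1, Tgfb1 and Edn1 overlap.

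BMP receptors and ligands were divided between the cell types. Of 19 tested genes of the TGF-beta and BMP axis, 4 were higher in mesangial cells and 6 in endothelium (median -0.39). Bmpr1a, the type I receptor ALK3, had 413, 464 and 369.3 in mesangial and 28.7, 23.6 and 28.7 in endothelial arrays (3.94 ± 0.13). Acvrl1, the type I receptor ALK1, had 371, 388 and 388 in endothelial and 215, 243 and 246 in mesangial arrays (-0.71 ± 0.09). Of the ligands, Bmp4 and Bmp2 were mesangial (1.46 ± 0.17 and 0.87 ± 0.17) and Bmp6 was endothelial, with 345, 471 and 465 against 84.9, 89.5 and 155 (-2.002 ± 0.25, and -2.28 without array C). Id1 and Smad6, targets of BMP signalling, had 274, 202 and 234 and 207, 208 and 199 in endothelium and differed by -1.39 and -1.12. Bmper, an extracellular BMP modulator, differed by -1.18. Tgfb1 differed by 0.00 with an interval of -0.29 to 0.30, and Tgfb3 by 1.07 ± 0.26, a call lost without mesangial array B, without any 1 endothelial array or with no minimum signal. Tgfb2, with 89.0, 112 and 120 in mesangial and 255, 109 and 187 in endothelial arrays, was not called (-0.71, adjusted p = 0.112), but was without endothelial array B (-1.04, adjusted p = 0.0144).

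Notch receptors were divided as well. Notch1 and Notch4, endothelial receptors, differed by -0.79 and -0.71, their ligand Dll4 had 168, 219 and 210 in endothelial and 80.4, 76.8 and 98.4 in mesangial arrays (-1.22 ± 0.14), and the target Hey1 differed by -1.82. Notch3, the receptor of mural cells, had 163, 157 and 149 in mesangial and 82.6, 85.3 and 80.8 in endothelial arrays (0.91 ± 0.08), and Heyl, a target known from mural cells, differed by 1.05. The signals of these Notch genes in the lower cell type lay near 100 or below it.

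The endothelin and nitric oxide axis separated receptors cleanly. Ednra, the endothelin A receptor of contractile cells, had 315, 402 and 305 in mesangial and 57.2, 49.9 and 62.7 in endothelial arrays (2.58 ± 0.14), opposite to Ednrb. Ece1, the enzyme that makes mature endothelin, had 806, 656 and 685 in endothelial and 67.4, 71.2 and 307 in mesangial arrays (-2.65 ± 0.55, and -3.36 ± 0.12 without array C). Edn1 itself had 155, 187 and 133 against 181, 103 and 176 and was not called (0.07, interval -0.49 to 0.63). On the nitric oxide side, the synthase Nos3 was endothelial, with 123, 111 and 102 against 61.6, 63.5 and 67.4 (-0.80 ± 0.10). The guanylate cyclase subunits Gucy1a3 and Gucy1b3 were mesangial, with 765, 847 and 716 against 44.7, 48.2 and 46.4 (4.06 ± 0.10) and 419, 491 and 382 against 28.3, 28.0 and 35.4 (3.82 ± 0.14). The downstream kinase Prkg1 and the phosphodiesterases Pde5a and Pde3a differed by 2.47, 2.38 and 1.82. In the arrays labelled mutant 6 of 10 tested genes of this list were called mesangial and 3 endothelial, and all 6 and all 3 were those called in the wild type arrays.

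Of the renin-angiotensin and prostaglandin genes, 3 of 8 tested were higher in mesangial cells and none in endothelium; without array C, Ace, the converting enzyme, was called endothelial (-0.68). Besides Agtr1a, Ptger4, the EP4 receptor of prostaglandin E2, had 623, 734 and 620 in mesangial and 79.7, 74.6 and 75.8 in endothelial arrays (3.10 ± 0.10). The renin cluster, which carries Ren1 and Ren2, had 275, 360 and 231 against 51.9, 54.8 and 46.6 (2.48 ± 0.17), and Akr1b7, an enzyme of renin cells, had 264, 276 and 198 against 43.6, 53.1 and 38.5 (2.45 ± 0.17). Both markers of renin cells thus moved with the mesangial group, and the part of juxtaglomerular cells in the mesangial profile was not tested. Agt and Agtr2 stayed below 100.

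Channels that set the tone of contractile cells were higher in mesangial cells in 5 of 6 tested members (median 2.27). The cation channels Trpc1, Trpc4 and Trpc6 had mesangial signals of 877, 825 and 553, of 474, 399 and 321, and of 261, 258 and 187, and differed by 2.89 ± 0.25, 2.89 ± 0.16 and 2.26 ± 0.15. Abcc9, the sulfonylurea receptor of vascular KATP channels, and Kcnmb1, the smooth muscle subunit of the BK channel, differed by 2.28 ± 0.14 and 1.98 ± 0.16. The pore gene of the BK channel, Kcnma1, stayed below 100 in all 6 arrays, and 8 of the 14 channel genes on the array were not tested.

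Of 11 tested chemokine and leukocyte adhesion genes, 2 were higher in mesangial cells and 4 higher in endothelium (5 without array C). Sele, the endothelial selectin, had 372, 290 and 460 in endothelial and 72.7, 68.6 and 79.2 in mesangial arrays (-2.32 ± 0.17), Icam1 and Icam2 differed by -0.83 and -0.85, and the chemokine receptor Cxcr4 by -1.84, or -2.48 without array C, a call lost without any 1 of the other 5 arrays and under both of the settings named for Emcn. Vcam1, the ligand of the integrin that holds the Itga4 subunit, was mesangial, with 645, 639 and 513 against 180, 93.9 and 87.2 (2.39 ± 0.27). Of 9 tested antigen presentation genes, 1 was called endothelial and none mesangial, against 8.04% and 9.84% of all tested clusters, so the count was near the background. B2m, the light chain of class I molecules, had 3732, 3281 and 3726 in mesangial and 3415, 3400 and 3414 in endothelial arrays (0.07, interval -0.14 to 0.28) and H2-K1 differed by -0.20 (interval -0.62 to 0.21). Cd1d1, which presents lipids, was called, with 94.7, 88.7 and 117 against 48.2, 40.2 and 50.5 (-1.11 ± 0.14).

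Of 12 tested immediate early and stress genes, which cell dissociation can raise, 6 were higher in endothelium and none in mesangial cells (median -0.70), against 8.04% and 9.84% of all tested clusters. Jun had 1493, 1017 and 1348 in endothelial and 370, 453 and 568 in mesangial arrays (-1.47 ± 0.20), Fos and Fosb differed by -0.88 and -0.95, and Atf3, Nr4a1 and the Hspa1b cluster, shared with Hspa1a, by -1.004, -0.79 and -0.79. The call of Atf3 was lost without endothelial array C or mesangial array A or B, and that of Hspa1b without endothelial array A or C or mesangial array A, or with all 18 arrays in 1 fit. Their part in the endothelial profile was not tested. None of 7 tested proliferation genes was called, with Top2a at 132, 141 and 299 in mesangial and 252, 54.2 and 113 in endothelial arrays. The arrays also differed in sex-linked genes: Xist had 685, 998 and 1007 in endothelial arrays and 730, 35.0 and 32.4 in mesangial arrays, and the Y-linked Ddx3y had 32.8, 32.7 and 33.0 against 31.2, 470 and 459. In the arrays labelled mutant the imbalance ran the other way, with Xist at 755, 711 and 560 in mesangial and 32.5, 31.7 and 732 in endothelial arrays, and Ddx3y at 695 and 772 in endothelial arrays A and B and below 100 in the other 4 arrays.

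The cell type difference itself was compared between genotypes with an interaction term over 12 arrays. In 262 of 12493 clusters (2.1%) it differed between wild type arrays and arrays labelled mutant by the same rule. The count was 164 with all 18 arrays in 1 fit, 151 without mutant endothelial array A, 154 and 144 without wild type endothelial array B or C, 168 without mutant mesangial array B, and 183 to 381 without any 1 of the other 8 arrays. Sex-linked genes and, in mutant mesangial array B, leukocyte genes differed between these arrays as given above, and their part in the interaction was not tested. The mesangial controls are marked +:- and the endothelial controls +|+, and the part of this unlike marking was not tested either. Cd2ap had signals of 819, 870 and 797 in mesangial and 891, 966 and 920 in endothelial arrays labelled mutant. The 3 mesangial arrays thus lay below, and the 3 endothelial arrays above, all wild type arrays of the same cell type, and the interaction missed the threshold (0.48 ± 0.13, adjusted p = 0.0705). Where the cluster's probes lie relative to the altered part of the gene is not known here, so these signals do not check the genotype labels. Bgn differed by 4.07 in wild type and 1.69 in mutant arrays, Pdgfc by 3.48 and 1.92, and Mrc1 by 5.20 and 3.44. Matrix genes in the other direction were Col12a1 (3.43 and 5.25), Col8a1 (2.70 and 4.07) and Thbs1, thrombospondin 1 (1.34 and 3.53). Cd34 went from 0.24 to -1.12 and Pdgfd from 0.15 to -1.21. Itga8 differed by 5.38 in wild type and 5.05 in mutant arrays, Gata3 by 4.51 and 4.14, and Erg by -2.90 and -3.17. The median of the mesangial and pericyte list was 4.07 in wild type and 3.56 in mutant arrays, that of the endothelial receptor and surface list -1.43 and -1.98, and that of the endothelial transcription factors -1.21 and -1.63.

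**Figure D5:**
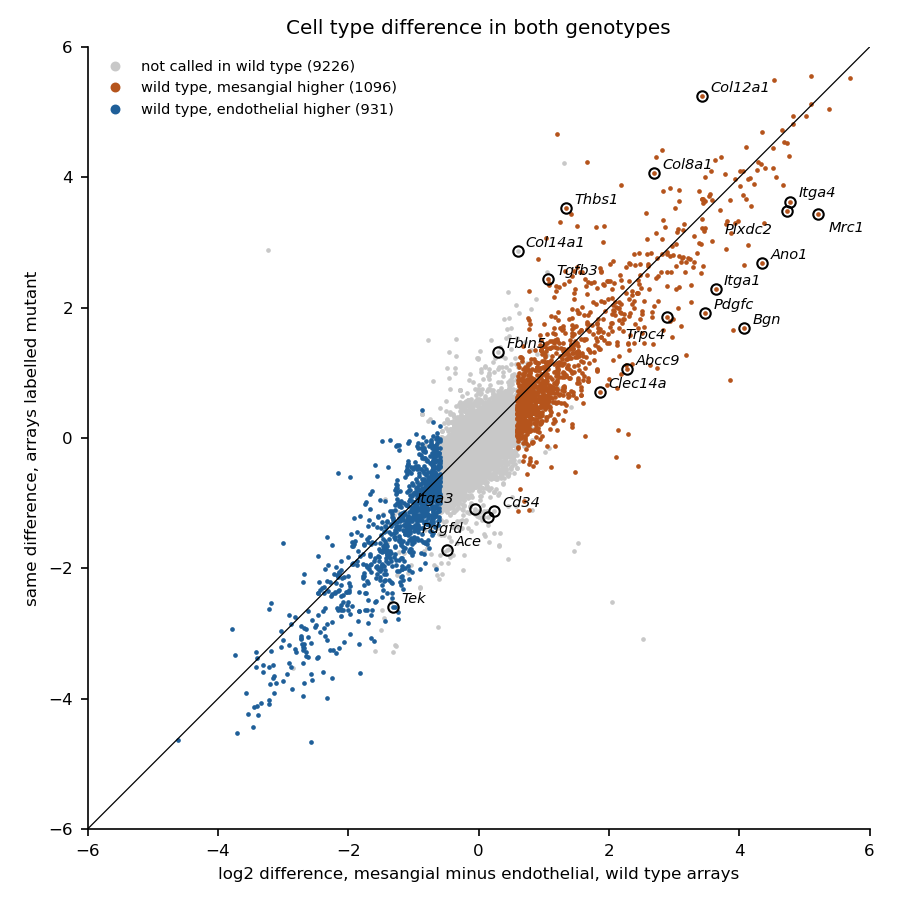
Log2 difference, mesangial minus endothelial, in the 6 wild type arrays (horizontal axis) and in the 6 arrays labelled mutant (vertical axis), for clusters tested in both, with colours for the wild type call and the diagonal as a line. Circled genes are those the text names with an interaction of at least 1 on the log2 scale, such as Col12a1 (3.43 and 5.25), Bgn (4.07 and 1.69) and Cd34 (0.24 and -1.12).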

How the data were processed

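GFP positive cells sorted from mouse glomeruli were profiled on Mouse Gene 1.0 ST arrays after RNA amplification, with 3 arrays for each of 6 groups of cell type and genotype. The deposited table holds 1 linear intensity per transcript cluster and array, which the authors made by RMA (background correction, quantile normalization and probe summary); the software named for this step differs between the sources. The table's 18 columns of normalized values were not used. Intensities were taken to log2 as deposited, and the number of arrays limits the precision. Columns were matched to groups by name and not to single samples, so the letters A to C only name arrays. Clusters that reached 100 in 1 or more arrays of a comparison were fitted with limma 3.58.1 in R 4.3.3 (lmFit and eBayes, Benjamini-Hochberg adjustment over all of them), and a call needed an adjusted p under 0.05 and a fold over 1.5. The genotype comparison was an interaction contrast over 12 arrays. Alternatives covered the signal minimum, array scaling, the fit and leaving out each array. The fits were tested on simulated data, and the outcome of that test is not given here. Named genes were the 12 largest called differences in each direction among clusters with 1 symbol and groups that did not overlap, and genes of 29 lists, of which 431 of 433 were on the array and 314 were tested. Members and lists were chosen with earlier results of these data known. Of the list genes, 15 share their cluster with another symbol. Gene symbols are those of the deposited annotation, and promoter windows came from RefSeq tables for GRCm38.p6, matched by symbol or synonym. A few genes that these rules would name are not reported here.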

Additional observations from a re-analysis of the deposited data

Results flagged for a closer look

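For 30 genes the text names or lists, the difference between the cell types differed between wild type arrays and arrays labelled mutant in the interaction contrast (limma, adjusted p under 0.05). Over all clusters tested in this contrast, 262 of 12493 (2.1%) were called by the rule that also needs the fold minimum. How many of the named or listed genes were tested in it is not given here. Whether 30 is more than that share was therefore not tested. Values here are the wild type log2 difference minus the mutant one. Positive values, a relatively more mesangial signal in the wild type, were found for Bgn (2.38), Postn (1.79), Mrc1 (1.76), Ano1 (1.67), Pdgfc (1.57), Cd34 (1.36), Pdgfd (1.36), Itga1 (1.35), Tek (1.27), Plxdc2 (1.252), Ace (1.24), Abcc9 (1.23), Clec14a (1.16), Itga4 (1.15), Itga3 (1.04), Trpc4 (1.03), Agrn (0.83), Esam (0.77), Epas1 (0.76), Id3 (0.68), Plxnd1 (0.65) and Klf2 (0.60). Negative values were found for Ptgs2 (-2.62), Col14a1 (-2.27), Thbs1 (-2.18), Col12a1 (-1.82), Tgfb3 (-1.37), Col8a1 (-1.37), Ccl2 (-1.36) and Fbln5 (-1.02). Ptgs2 and Ccl2 stayed below a signal of 100 in all 6 wild type arrays. Postn stayed below 100 in the 6 arrays labelled mutant. Without wild type mesangial array C, the adjusted p of Clec14a, Fbln5, Agrn, Esam, Id3, Plxnd1 and Klf2 lay between 0.0545 and 0.0793, and that of the other 23 genes stayed under 0.05. Losses of single genes without any other array are not given here. Cd2ap signal was lower in the mesangial arrays labelled mutant (797 to 870) than in the wild type ones (922 to 1123), and higher in the endothelial ones (891 to 966 against 757 to 859). Why these genes differ was not tested.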

How the results depend on the processing

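With a fold over 2 in place of 1.5, 636 clusters were higher in mesangial and 496 in endothelial cells. Omitting single arrays gave 1046 to 1261 and 833 to 1062 clusters, and 939 to 988 and 1337 to 1502 in the arrays labelled mutant. Subtracting array medians gave 1309 and 877 clusters and quantile normalization 1120 and 1030, a mesangial share of calls of 59.9% and 52.1% against 55.04%. The genotype interaction was less stable, with 164 clusters when all 18 arrays were fitted together and 144 to 381 when an array was left out. Of 217 called genes followed by name, 29 missed the threshold under at least 1 alternative, mostly endothelial genes with high signal in mesangial array C. Among the genes followed, signs turned for 7, each uncalled and near 0 with all arrays. Without single arrays, Edn1 ranged from -0.189 to 0.217, Itga3 from -0.132 to 0.0563, Nrp1 from -0.0304 to 0.0602, Nrp2 from -0.0734 to 0.0431, Tgfb1 from -0.0640 to 0.104, Tm4sf1 from -0.0430 to 0.108 and Tyrobp, which was high in mesangial array C, from -0.730 to 0.731. Array weights gave -0.00995 for Nrp1, 0.0165 for Itga3 and -0.403 for Tyrobp, subtracted medians 0.000203 for Itga3 and 0.0254 for Nrp2, and quantile normalization -0.0474 for Tgfb1. The cause of these changes was not tested. No paired analysis was possible because the labels number the samples individually and the groups share no replicate numbers. Signals near 100 are close to the array background and limit the differences of weakly expressed genes.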

Other observations

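The genes ranked just after the 12 named in each direction were read as a description and were chosen after their values were seen. On the mesangial side they included S1pr3, a sphingosine phosphate receptor, with 1374, 1457 and 1144 in mesangial and 55.5, 55.98 and 56.4 in endothelial arrays (4.56 ± 0.11). Cxcl13, a chemokine that attracts B cells, had 1226, 1079 and 1538 against 54.8, 52.2 and 59.8 (4.51 ± 0.14), and Ptn, the growth factor pleiotrophin, had 3526, 3425 and 3601 against 200, 143 and 164 (4.39 ± 0.13). Npr3, the clearance receptor of natriuretic peptides, differed by 4.29 ± 0.13 and Ano1, a calcium-activated chloride channel, by 4.35 ± 0.11. Cd53, a tetraspanin best known from leukocytes, had 1736, 1053 and 1500 against 70.6, 59.2 and 80.2 (4.33 ± 0.20). Of the 14 leukocyte genes, 1, 0 and 3 reached 100 in mesangial arrays A, B and C, with Tyrobp at 130 in A and 523 in C and Cd68 below 100, and their part in the Cd53 signal was not tested.

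On the endothelial side, Tnfsf10, the death ligand TRAIL, had 571, 569 and 469 in endothelial and 39.3, 33.0 and 123 in mesangial arrays (-3.30 ± 0.46, and -3.89 ± 0.14 without array C). Ces2g, a carboxylesterase, had 506, 601 and 674 against 52.3, 57.0 and 85.4, and array C stayed below 100 (-3.22 ± 0.20). Fmo1, a flavin monooxygenase, and Plcb1, a phospholipase C, differed by -3.14 and -3.15, and by -3.92 and -3.68 without array C.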
